A study of Mus musculus with 8 samples.

Results

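The 6 complement genes C4b, C4a, C3, C1qa, C1qb and C1qc are described across the cell classes of the mouse anterior hippocampus and caudate putamen. They were chosen by name, and all 6 were listed among the 32285 genes of every library. Single-nucleus RNA libraries had been made from tissue punches of C57BL/6JN mice, left hemisphere only, at 3 and at 21 months of age, with no treatment named in the labels. There were 8 libraries, 2 for each region and age, and each mixed, per the labels, equal numbers of nuclei from a male and a female mouse. The labels do not say whether the animals behind the libraries of the 2 regions were the same. Nuclei had been sorted on a DNA dye with no selection for cell type, so all classes of the tissue could be present, and cytoplasmic RNA was largely left behind.

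Complement is a cascade of plasma and tissue proteins that marks targets for uptake or lysis. C1q, built from the A, B and C chains that C1qa, C1qb and C1qc encode, recognises the target and starts the classical pathway. C4 is then cut and deposited on the surface, where it helps to form the enzyme that cuts C3, the point at which all complement pathways meet. In the brain, microglia are the main known source of C1q, astrocytes are known to make C4 and C3, and C1q and C3 take part in the removal of synapses during development. In the mouse C4b encodes the complement component C4, and its neighbour C4a encodes the sex-limited protein, a close copy that lacks most C4 activity.

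The genes lie in 2 clusters and a separate locus (GENCODE vM21 annotation of GRCm38). C4b (ENSMUSG00000073418, chr17:34728380-34743882) and C4a (ENSMUSG00000015451, chr17:34809092-34823464) are both on the minus strand, 65209 bases apart, with 41 and 42 exons in the longest transcript. C3 (ENSMUSG00000024164, chr17:57203970-57228136, minus strand) has 41 exons. The C1q genes follow each other on the minus strand of chromosome 4 within 18675 bases: C1qb (ENSMUSG00000036905, chr4:136880129-136886187), C1qc (ENSMUSG00000036896, chr4:136889804-136893065) and C1qa (ENSMUSG00000036887, chr4:136895917-136898803), with 3 exons each.

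Because C4b and C4a are near-identical copies, a read can be assigned to one of them only where they differ. The coding sequence of C4b was aligned with the longest C4a transcript of the annotation, which lists no protein-coding C4a transcript. Over 5204 aligned bases there were 201 differences, an identity of 96.1%. Of all 90-base windows of the C4b transcript, 18.9% occurred unchanged in the C4a transcript, and 17.0% did in the last 1000 bases, which a 3′ library reads most. The 90-base window with the most differences is shown for both genes, with the 14 differing bases in capitals, because it shows how far the copies can be told apart. It lies in exon 21 of each gene (C4b chr17:34735428-34735517, residues 893 to 922 of the protein; C4a chr17:34816084-34816173; minus strand, GRCm38, written 5′ to 3′).
C4b stretch: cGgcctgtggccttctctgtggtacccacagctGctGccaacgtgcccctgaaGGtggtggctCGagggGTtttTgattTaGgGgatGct
C4a stretch: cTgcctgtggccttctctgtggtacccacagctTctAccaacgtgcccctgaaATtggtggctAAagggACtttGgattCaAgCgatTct

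The libraries held 67205436 to 234811422 unique molecular identifiers (UMIs, each standing for 1 captured RNA molecule). After quality control 6387 to 17012 nuclei per library remained, with median depths of 6664 to 11326.5 UMIs per nucleus. Nuclei were clustered in each region without the complement genes, and clusters were named from marker genes, so that names such as astrocyte-like rest on rebuilt clusters and not on an annotation by the authors. Of 42333 hippocampal nuclei 16.4% stayed unnamed, and of 55542 caudate putamen nuclei 4.81%. Any 2 libraries shared at most 0.774% of the barcodes of the smaller one. Levels are given as CPM, the UMIs of a gene per 1000000 UMIs in all nuclei of a class and library, and levels of different genes are not compared. Age effects are log2 fold changes, 21 against 3 months, from edgeR's quasi-likelihood test on those sums, with p-values adjusted by Benjamini-Hochberg over all genes tested in the class. A pool of 1 male and 1 female counts as 1 replicate, so the spread between 2 libraries is the only measure of error within a group. Where old and young libraries are said not to overlap, the share of all genes that separate in this way was not counted.

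C4b was higher at 21 months in oligodendrocyte-like and astrocyte-like nuclei of both regions. It was also higher, at low levels, in medium spiny neurons of the caudate putamen. The call in the D1-like type of these neurons was lost under several alternatives, and the part of glial RNA in them was not tested. C4b also passed the test in OPC-like (oligodendrocyte precursor) nuclei, from few molecules. There it passed the filter on low counts only through the 21-month libraries, and the calls of single regions were lost with some libraries left out. The level was highest in astrocyte-like nuclei among the well-sampled classes at 3 months, and at 21 months oligodendrocyte-like nuclei came close to it in the caudate putamen (means of 100.4 and 113.5 CPM). In the old hippocampus both oligodendrocyte-like values lay below both astrocyte-like ones. None of the C1q chains passed the test for age in microglia-like nuclei, and C3 was near absent from every class.

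C4b in oligodendrocyte-like nuclei, the myelin-forming class, stood at 4.76 and 8.80 CPM in the hippocampal libraries of 3 months and at 56.4 and 73.4 CPM in those of 21 months. In the caudate putamen the 3-month libraries had 10.5 and 11.7 CPM and the 21-month libraries 99.2 and 102 CPM. In each region both old libraries lay above both young ones, with no overlap. These levels rested on 17 and 50 C4b UMIs in the young hippocampal libraries and on 1158 and 1046 in the old caudate putamen libraries. The age effect was 3.24 in the hippocampus (SE 0.21, 95% interval 2.77 to 3.71, adjusted p = 7.74e-05 by edgeR), a contrast in which 1.04% of the 14638 genes tested passed an adjusted p of 0.05. It was 3.22 in the caudate putamen (SE 0.18, 95% interval 2.83 to 3.62, adjusted p = 1.17e-05 by edgeR), where 1.38% of genes passed. The difference of the 2 age effects was -0.02 (95% interval -0.61 to 0.58, adjusted p = 0.996 by edgeR), and 0% of genes passed in that contrast. Averaged over ages, the level was higher in the caudate putamen by 0.61 on the log2 scale (SE 0.14, adjusted p = 0.0147 by edgeR), in a contrast where 12.9% of genes passed. Without library 2 of the 3-month caudate putamen, the only library counted with another software version, that difference was 0.57 and its adjusted p 0.0767. The call was also lost with thinned nuclei (0.45, adjusted p = 0.149 by edgeR) and with equal numbers of nuclei per library (0.54, adjusted p = 0.0723 by edgeR).

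Of the 6 genes, C4b and the 3 C1q chains passed the filter on low counts in oligodendrocyte-like nuclei, and of these 4 genes C4b alone passed the test for age, in both regions. Astrocyte marker genes were also counted in these nuclei. The 11 astrocyte markers summed to 337 to 572 CPM in the libraries of 3 months and to 386 to 603 CPM in those of 21 months. At the ratio of C4b to these markers seen in astrocyte-like nuclei of the same library, they would bring 14.9 and 7.16 C4b UMIs in the old hippocampal libraries, where 270 and 282 were counted. In the old caudate putamen the corresponding values were 45.3 and 39.1 against 1158 and 1046 counted. In the young libraries the same ratio would give 4.10 of 17, 10.2 of 50, 8.13 of 83 and 5.93 of 112. Whether the markers were the nuclei's own RNA was not tested, nor was the part of astrocyte RNA in the C4b counts.

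**Figure D1:**
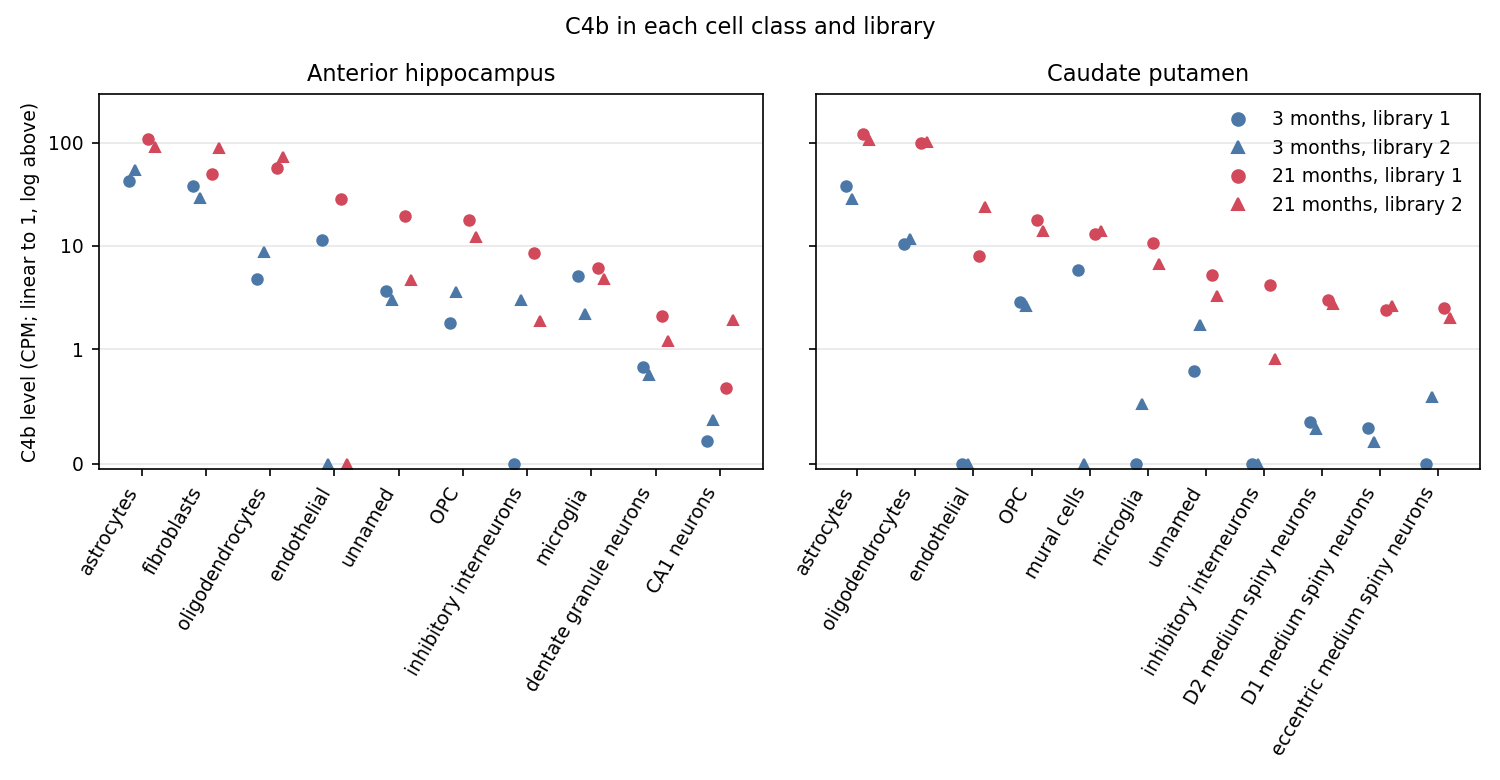
C4b level (CPM, an axis that is linear to 1 and logarithmic above) in each cell class with enough nuclei, for the hippocampus (left) and caudate putamen (right); circles are library 1 and triangles library 2 of 3 (blue) and 21 (red) months. In oligodendrocyte-like nuclei the red points (56.4 to 102 CPM) sit above all blue ones (4.76 to 11.7 CPM).

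Astrocyte-like nuclei held C4b at 42.3 and 54.4 CPM in the young against 109 and 91.2 CPM in the old hippocampal libraries. In the caudate putamen they held 37.9 and 28.5 CPM at 3 months and 121 and 106 CPM at 21 months. All 4 old libraries lay above all 4 young ones. The age effect was 1.13 in the hippocampus (SE 0.15, 95% interval 0.81 to 1.45, adjusted p = 0.00371 by edgeR; 0.871% of 15034 genes passed). It was 1.78 in the caudate putamen (SE 0.16, 95% interval 1.44 to 2.13, adjusted p = 0.000305 by edgeR; 0.399% of genes passed). The hippocampal result missed the threshold without library 1 of 21 months, at 0.99 with an adjusted p of 0.112. The caudate putamen effect exceeded the hippocampal one by 0.65 (95% interval 0.18 to 1.12), a difference that did not pass after adjustment (adjusted p = 0.782 by edgeR; 0% of genes passed) except when genes of low counts were not filtered out (0.68, adjusted p = 0.0451 by edgeR). The levels of the regions, averaged over ages, differed by -0.21 (95% interval -0.44 to 0.03, adjusted p = 0.214 by edgeR; 21% of genes passed), and by -0.43 with doublets retained (adjusted p = 0.0175 by edgeR).

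The clusters inside the astrocyte-like class differed in level. A hippocampal cluster led by Myoc, Tnc and Gfap, the gene of the intermediate filament that marks fibrous and reactive astrocytes, had 175 and 161 CPM of C4b at 3 months and 261 and 195 CPM at 21 months, from 41 to 126 nuclei per library. The largest hippocampal cluster, led by Prdm16 and Gli3, had 37.6 and 53.0 CPM at 3 months and 95.4 and 84.9 CPM at 21 months. So the young Gfap-led nuclei had more C4b per UMI than the old nuclei of the largest cluster, in every pair of libraries. The main caudate putamen cluster, led by Slc1a2 among others, had 36.8 and 28.4 CPM at 3 months and 122 and 106 CPM at 21 months. These levels within clusters are descriptions with no test.

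In OPC-like nuclei C4b was lower and rested on few molecules. The UMIs were 2 and 6 in the young against 14 and 11 in the old hippocampal libraries, or 1.80 and 3.57 against 18 and 12.1 CPM. In the caudate putamen they were 3 and 5 against 17 and 15, or 2.89 and 2.59 against 17.8 and 13.9 CPM. Old and young libraries did not overlap in either region. C4b passed the low-count filter in this class only through the 21-month libraries, so a call under that filter is a description of these counts. The age effects were 2.41 in the hippocampus (SE 0.60, adjusted p = 0.0311 by edgeR; 1.05% of 10454 genes passed) and 2.53 in the caudate putamen (SE 0.57, adjusted p = 0.0351 by edgeR; 0.306% passed). Each region's call was lost when any 1 of its own 4 libraries was left out or when equal numbers of nuclei were used (adjusted p 0.171 and 0.405). The caudate putamen call was also lost with doublets retained (0.0958), and the hippocampal one when that region was fitted on its own (0.0885). The mean over both regions, 2.47 (SE 0.41, 95% interval 1.63 to 3.31, adjusted p = 0.000224 by edgeR; 2.02% passed), passed without each of the 8 libraries in turn. With no filter, among 21209 genes with any count, the effects were 2.38 in the hippocampus (adjusted p = 0.0122 by edgeR), 2.52 in the caudate putamen (adjusted p = 0.00536 by edgeR) and 2.45 in the mean (adjusted p = 1.48e-06 by edgeR). The share of all genes that passed in fits with no filter is not given here, so these calls have no background beside them. None of the other 5 genes passed the low-count filter in this class. The astrocyte markers summed to 940 to 1125 CPM in OPC-like nuclei. At the ratio of astrocyte-like nuclei of the same library they would bring 2.44 and 5.48 C4b UMIs in the young against 4.43 and 4.33 in the old hippocampus, and 2.45 and 3.55 against 7.25 and 7.62 in the caudate putamen. That is about as many as were counted at 3 months and fewer than were counted at 21 months, and the part of astrocyte RNA in this result was not tested.

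The age effect of C4b differed between oligodendrocyte-like and astrocyte-like nuclei. Fitted together with the library as a block, the mean effect over regions was larger in oligodendrocyte-like nuclei by 1.85 on the log2 scale (SE 0.16, 95% interval 1.53 to 2.17, adjusted p = 2.75e-11 by edgeR), a difference that 2.02% of 16205 genes passed. Against OPC-like nuclei the difference was 0.79 (95% interval -0.15 to 1.74, adjusted p = 0.645 by edgeR; 0.716% of genes passed). Astrocyte-like minus OPC-like nuclei gave -1.06 (95% interval -1.88 to -0.23, adjusted p = 0.359 by edgeR; 0.66% passed). Neither of these last comparisons passed the test, and their intervals are wide.

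**Figure D2:**
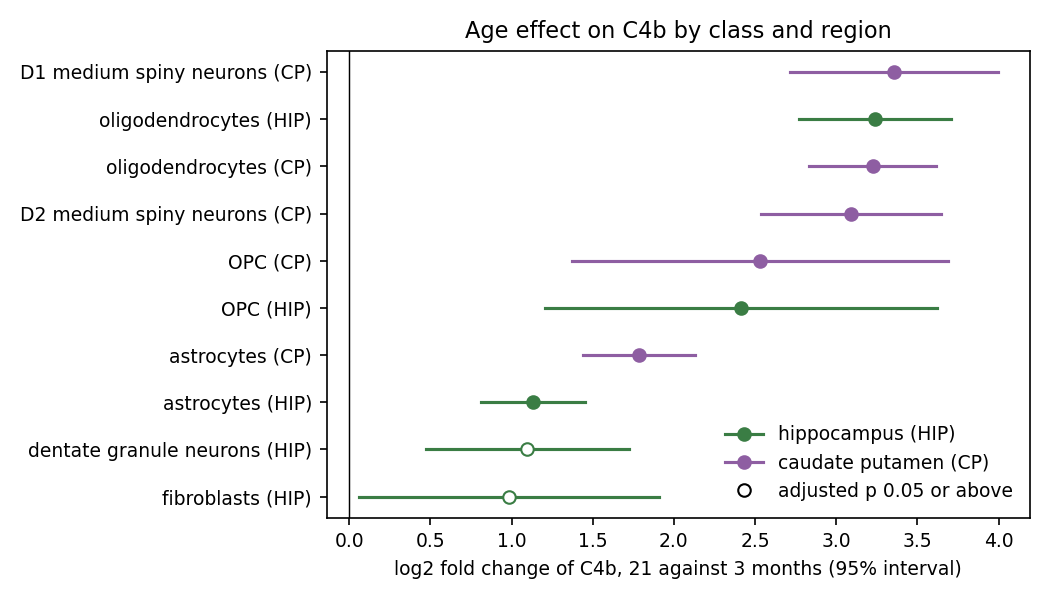
Log2 fold change of C4b from 3 to 21 months (horizontal axis) with its 95% interval, for each class and region tested; green is hippocampus, purple caudate putamen, and open points have an adjusted p of 0.05 or above. The oligodendrocyte-like effects (3.24 and 3.22) lie to the right of the astrocyte-like ones (1.13 and 1.78), and the OPC-like intervals overlap both.

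The share of nuclei with at least 1 C4b UMI was also larger at 21 months. Nuclei with at least 1500 UMIs were thinned to 1500 UMIs, and the others were left out, so that classes of unequal depth could be set side by side. The part left out differed between libraries. In library 2 of the 21-month caudate putamen 339 of 416 microglia-like nuclei remained, and in library 1 of the 21-month hippocampus 164 of 166. Of the thinned oligodendrocyte-like nuclei 0.76% and 1.59% had C4b in the young against 8.15% and 10.6% in the old hippocampal libraries. In the caudate putamen 1.50% and 1.75% had it at 3 months and 12.1% and 12.8% at 21 months. For thinned astrocyte-like nuclei the shares were 5.88% and 8.34% against 14.9% and 12.4% in the hippocampus, and 6.20% and 5.24% against 16.9% and 15.9% in the caudate putamen. In both classes and regions old and young libraries did not overlap, and the shares were not tested. As a background, microglia-like nuclei, a class with little C4b, had 0.532% and 0.342% at 3 and 0.61% and 0.524% at 21 months in the hippocampus, and 0%, 0.16%, 1.33% and 1.18% in the order of the caudate putamen libraries. Without thinning, at median depths of 2509 to 3693.5 UMIs, 1.55% to 4.07% of oligodendrocyte-like nuclei had a C4b UMI at 3 months and 15.3% to 22.7% at 21 months. Unthinned microglia-like nuclei, at 2015 to 2861 UMIs, had 0% to 2.64% over the 8 libraries.

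Nuclei with repeated C4b molecules were more common at 21 months. Oligodendrocyte-like nuclei with 2 or more C4b UMIs made up 0% and 0.129% of the class in the young hippocampus and 3.37% and 5% in the old. The caudate putamen values were 0.267% and 0.581% at 3 months and 5.98% and 4.89% at 21 months. The highest count in a nucleus was 9 in this class and 10 in the astrocyte-like class. Intervals on all such shares cover counting error only.

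**Figure D3:**
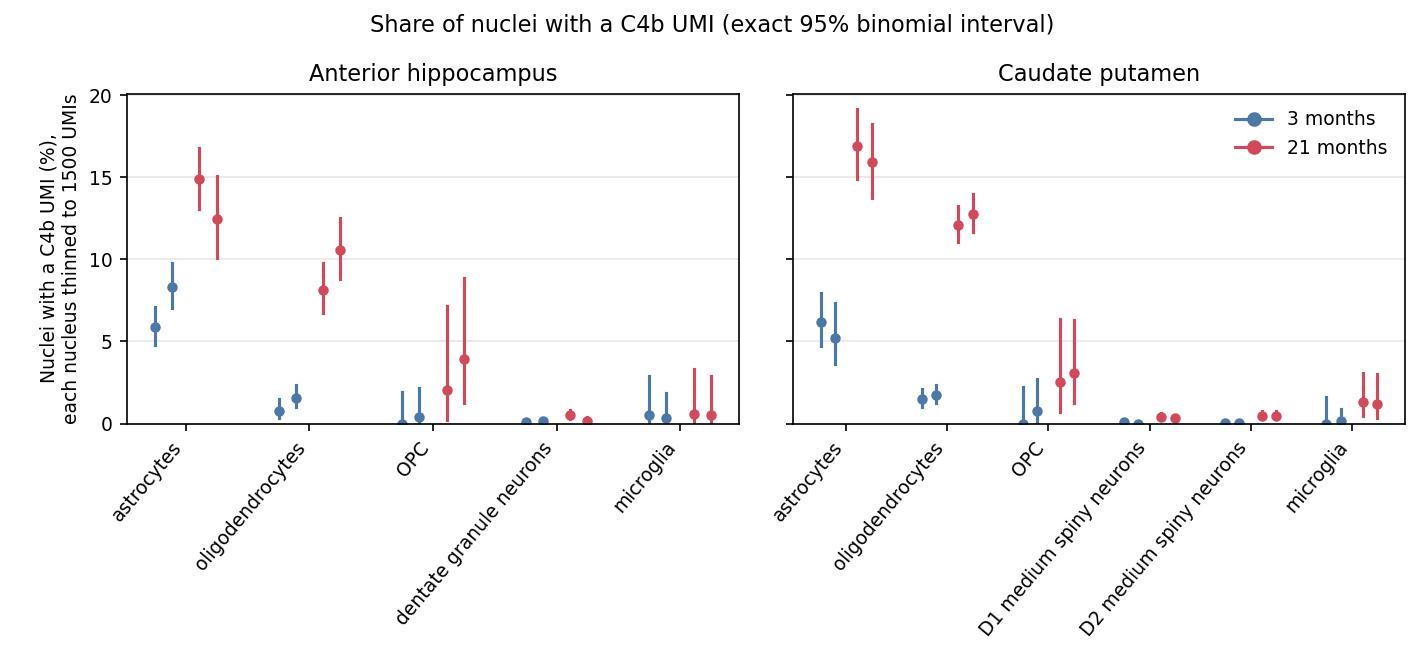
Share of nuclei (%) with at least 1 C4b UMI, by class, region and library, with exact 95% binomial intervals. Nuclei with at least 1500 UMIs were thinned to 1500 UMIs, and the others were left out. Blue is 3 and red 21 months. The oligodendrocyte-like shares run from 0.76% to 1.75% in blue and from 8.15% to 12.8% in red, and the microglia-like shares stay at or under 1.33%.

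Medium spiny neurons, the projection neurons of the caudate putamen, had little C4b per UMI but were many. D1-like neurons, which carry the dopamine receptor of the direct pathway, had 18 and 16 C4b UMIs at 3 months (0.309 and 0.187 CPM) and 125 and 147 at 21 months (2.41 and 2.64 CPM). In D2-like neurons, of the indirect pathway, the counts were 14 and 19 (0.366 and 0.300 CPM) against 111 and 108 (2.96 and 2.75 CPM). In both types old and young libraries did not overlap. The age effect was 3.35 in D1-like neurons (SE 0.27, 95% interval 2.71 to 3.99, adjusted p = 0.0164 by edgeR; 1.3% of 18433 genes passed) and 3.09 in D2-like neurons (SE 0.24, 95% interval 2.54 to 3.64, adjusted p = 0.00422 by edgeR; 4.8% of 17326 genes passed). The D1-like call was lost without either young library or without old library 2 (adjusted p 0.0973 to 0.112) and with thinned nuclei (0.107), and the D2-like call held without each library.

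Glial marker genes were also counted in these neurons, at both ages, and whether they were the neurons' own RNA was not tested. The 12 oligodendrocyte markers summed to 164 and 160 CPM in young and 164 and 190 CPM in old D1-like neurons. Scaled by those markers at the ratio of oligodendrocyte-like nuclei of the same library, they would bring 5.47, 8.64, 46.0 and 66.6 C4b UMIs, fewer than the 18, 16, 125 and 147 counted. The 11 astrocyte markers summed to 1100 and 1223 CPM at 3 months and 1218 and 1457 CPM at 21 months, and all of them were above 0. Scaled by these at the ratio of astrocyte-like nuclei, they would bring 153, 192, 460 and 511 C4b UMIs, more than were counted. In D2-like neurons the astrocyte scaling gave 97.3, 137, 323 and 351 UMIs, again more than the counts, and the oligodendrocyte scaling 3.55, 6.31, 34.2 and 47.0, fewer than the counts. The astrocyte markers and C4b were therefore not in the ratio of astrocyte-like nuclei, and the part of glial RNA in the neuronal C4b was not tested. In thinned D1-like neurons the share with C4b was 0.0796% and 0% at 3 months and 0.373% and 0.343% at 21 months, under the share in microglia-like nuclei of the same library in 3 of 4 libraries.

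Dentate granule-like neurons of the hippocampus had 0.845 and 0.771 CPM of C4b at 3 months and 2.08 and 1.18 CPM at 21 months. The groups did not overlap, but the age effect of 1.10 (SE 0.29, 95% interval 0.47 to 1.72) missed the threshold at an adjusted p of 0.0546 by edgeR, in a contrast where 4.48% of 17907 genes passed. It passed with no filter on low counts (adjusted p = 0.00125 by edgeR), without old library 2 (effect 1.43) and without young library 1 (effect 1.18), and it was 0.62 without old library 1. Scaled by astrocyte markers as above, these neurons would hold 125 and 356 C4b UMIs at 3 months and 238 and 155 at 21 months, more than the 39, 76, 89 and 41 counted. Scaled by oligodendrocyte markers they would hold 3.94, 19.4, 46.3 and 45.9, fewer than were counted except in old library 2, and the part of glial RNA here was not tested. Hippocampal fibroblast-like leptomeningeal nuclei had 38.0 and 28.9 CPM at 3 months and 49.9 and 89.4 CPM at 21 months, from 61 to 149 nuclei per library. Their age effect was 0.98 (95% interval 0.06 to 1.91, adjusted p = 0.912 by edgeR), in a contrast where 0.013% of 7675 genes passed. With each hippocampal library left out in turn, the effect ranged from 0.63 to 1.47. In CA1-like, interneuron-like, endothelial-like, mural-like, eccentric medium spiny-like and microglia-like nuclei C4b had too few counts for the test. In microglia-like nuclei it had 3 and 2 UMIs in the young against 3 and 3 in the old hippocampal libraries, and 0 and 1 against 12 and 6 in the caudate putamen.

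In whole libraries, C4b stood at 5.08 and 4.10 CPM in the young against 20.4 and 12.3 CPM in the old hippocampus. The caudate putamen libraries had 2.45 and 1.52 CPM at 3 months and 18.5 and 14.8 CPM at 21 months. Oligodendrocyte-like nuclei held 3.28% and 6.54% of these C4b UMIs in the young hippocampus and 15.8% and 35.5% in the old, and 27.1% and 40.9% against 51.5% and 57.1% in the caudate putamen. The share held by astrocyte-like nuclei was 64.2% and 58.9% against 53.0% and 43.6% in the hippocampus, and 56.9% and 37.6% against 33.9% and 25.7% in the caudate putamen. The hippocampal values leave out an unnamed cluster of 847 nuclei whose leading markers were those of astrocytes together with Ttr. A caudate putamen cluster of 173 nuclei that shares Slc6a11 and Itih3 with it was counted as astrocyte-like, so the class is not the same in both regions. The class sizes moved too: oligodendrocyte-like nuclei were 10.6% and 9.14% of the young against 15.6% and 17.8% of the old hippocampal nuclei, and 19.6% and 16.6% against 27.1% and 23.6% in the caudate putamen. These shares depended on the clustering: the oligodendrocyte-like share, averaged over libraries, went from 34.0% to 20.1% in the young and from 54.3% to 36.4% in the old caudate putamen with doublets retained, and from 4.91% to 1.98% in the young hippocampus at resolution 2. In sums over a library, more cells of a type and more RNA per cell cannot be told apart.

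**Figure D4:**
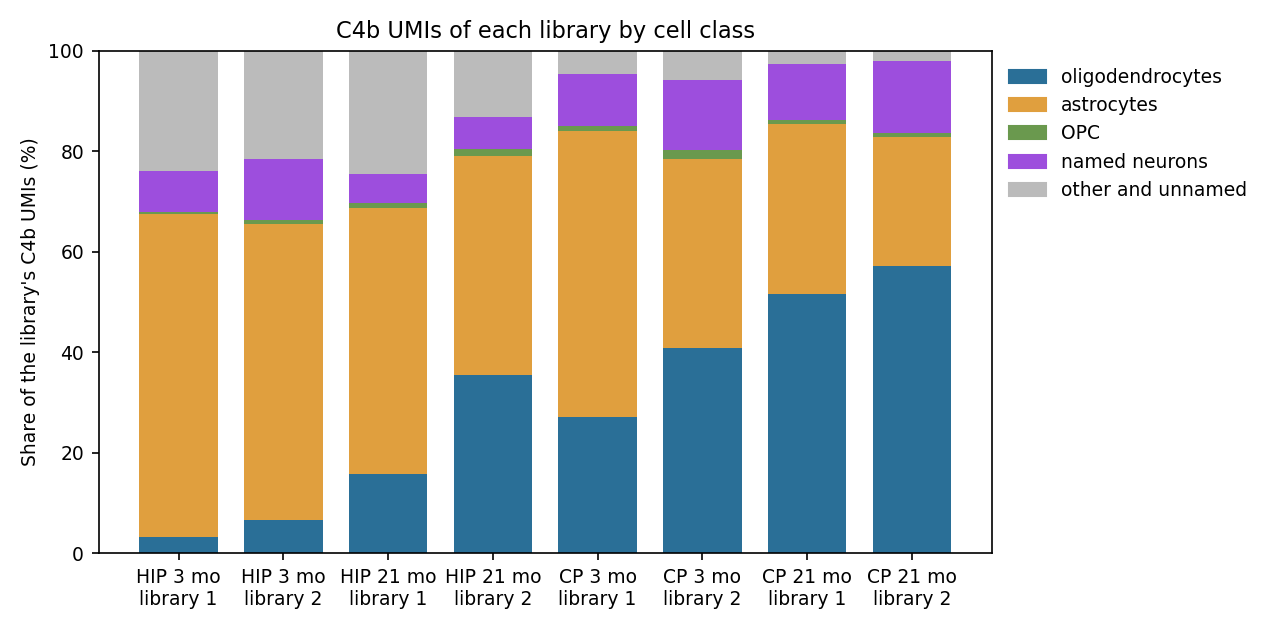
Share (%) of the C4b UMIs of each library held by each cell class, stacked to 100%, for the 4 hippocampal (HIP) and 4 caudate putamen (CP) libraries. The oligodendrocyte-like share (blue) runs from 3.28% in a young hippocampal library to 57.1% in an old caudate putamen library.

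Each library held a male and a female, and nuclei with Xist but no Y-linked UMI were taken as female, those with Y-linked UMIs and no Xist as male. Assignment was not equal between the sexes. Of the oligodendrocyte-like nuclei of a library, 29% to 53.6% were assigned as female and 13.2% to 37.1% as male. Another 27.6% to 35.8% stayed unassigned, and whether the sexes were recovered unequally was not tested. In caudate putamen microglia-like nuclei the female share was 38.0% and 47.8% at 3 months and 57.9% and 63.7% at 21 months. In female oligodendrocyte-like nuclei C4b ran from 1.96 to 14.4 CPM in the 4 young libraries and from 53.6 to 123 CPM in the 4 old ones. In male nuclei the ranges were 4.81 to 12 CPM and 33.6 to 103 CPM, so that old and young did not overlap in either sex. The female minus male difference was 0.17 (95% interval -0.61 to 0.96, adjusted p = 0.999 by edgeR; 0.0654% of genes passed), and the age effect differed between the sexes by 0.09 (95% interval -1.50 to 1.69, adjusted p = 0.993 by edgeR; 0.818% passed). For astrocyte-like nuclei the values were 0.43 (95% interval -0.10 to 0.97, adjusted p = 1.00 by edgeR; 0.105% passed) and -0.64 (95% interval -1.71 to 0.43, adjusted p = 0.817 by edgeR; 0.33% passed). These intervals leave room for sex differences of more than 1 on the log2 scale in the age effect.

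Most C4a UMIs lay in neurons, which also held most of all UMIs, and the age effects of C4a passed no test. D1-like neurons had 2.13 and 2.21 CPM of C4a at 3 months and 1.23 and 1.69 CPM at 21 months, an effect of -0.60 (95% interval -1.09 to -0.11, adjusted p = 0.179 by edgeR). D2-like neurons had 2.43 and 1.88 against 1.57 and 1.45 CPM, an effect of -0.52 (95% interval -1.0 to -0.03, adjusted p = 0.187 by edgeR). Old libraries lay below young ones in both types, opposite in sign to C4b in the same nuclei, but neither effect passed after adjustment. Unadjusted p-values under 0.05 by edgeR were common for age in these neurons. They were reached by 3626 of 18433 genes in the D1-like and 4107 of 17326 in the D2-like type. Dentate granule-like neurons gave -0.41 (95% interval -1.0 to 0.18, adjusted p = 0.461 by edgeR) and CA1-like neurons -0.66 (95% interval -1.93 to 0.60, adjusted p = 0.717 by edgeR; 1.03% of 14604 genes passed). D1-like neurons held 46.4% to 55.6% and D2-like neurons 33.1% to 42.8% of the C4a UMIs of each caudate putamen library, and dentate granule-like neurons 46.1% to 71.9% in the hippocampus. Of the UMIs of all genes these 3 classes held 42.7% to 47.2%, 30.6% to 35.1% and 45.2% to 53.7%. Per UMI, C4a in astrocyte-like nuclei ranged from 0 to 1.09 CPM in the hippocampus, which spans the dentate granule-like range of 0.665 to 0.953 CPM, and from 0.635 to 1.93 CPM in the caudate putamen. In oligodendrocyte-like nuclei, where C4b was abundant at 21 months, C4a had 2 UMIs in the old hippocampal and 8 in the old caudate putamen libraries together. How many UMIs of either gene were assigned to the other was not tested.

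The C1q genes had high levels per UMI in microglia-like nuclei at both ages. C1qa stood there at 151 and 128 CPM in the young against 111 and 150 CPM in the old hippocampal libraries, and at 131 and 158 CPM against 133 and 85.6 CPM in the caudate putamen. C1qb stood at 195 and 210 CPM against 163 and 210 CPM in the hippocampus and at 254 and 215 CPM against 214 and 182 CPM in the caudate putamen. C1qc stood at 193 and 155 CPM against 149 and 173 CPM in the hippocampus and at 177 and 214 CPM against 165 and 145 CPM in the caudate putamen. Old and young libraries overlapped for C1qa in both regions and for C1qb and C1qc in the hippocampus, while in the caudate putamen the old C1qb and C1qc values lay below the young ones by small margins.

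The mean age effects over both regions in microglia-like nuclei were -0.20 for C1qa (95% interval -0.53 to 0.12, adjusted p = 0.646), -0.13 for C1qb (95% interval -0.37 to 0.11, adjusted p = 0.710) and -0.19 for C1qc (95% interval -0.44 to 0.07, adjusted p = 0.596), all by edgeR. None of the 3 passed in a contrast where 1.44% of 10260 genes did. In the caudate putamen alone, where 0.76% of genes passed, the effects were -0.39, -0.20 and -0.33. In the hippocampus, where 0.0682% did, they were -0.02, -0.06 and -0.05. With each library left out in turn, the caudate putamen effects ranged from -0.73 to -0.12, from -0.33 to -0.09 and from -0.46 to -0.17. The mean effects over both regions then ranged from -0.39 to -0.08, from -0.25 to -0.05 and from -0.28 to -0.11. Between the regions the levels differed by -0.08 for C1qa, 0.15 for C1qb and 0.08 for C1qc, none past the threshold in a contrast where 5.72% of genes passed. Female and male microglia-like nuclei gave no call either, in a contrast where 0.0868% of genes passed. The C1qa age effect was 0.74 larger in female nuclei, a difference that did not pass after adjustment (95% interval 0.15 to 1.33, adjusted p = 0.825 by edgeR; 0.0145% of genes passed).

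Microglia-like nuclei were 1.85% to 4.46% of a library and held 35.0% to 62.3% of its C1qa, 45.8% to 68.9% of its C1qb and 50.4% to 74.5% of its C1qc UMIs. After thinning to 1500 UMIs, 21.3% to 30.4% of them had a C1qb UMI, against 0.0762% to 0.657% of oligodendrocyte-like nuclei. All 3 chains were found together in 0% to 2.66% of thinned microglia-like nuclei and none of them in 40.4% to 57.5%. Hippocampal border or perivascular macrophage-like nuclei, few in number (12 to 31 per library), also had C1q: their mean C1qb was 240 CPM at 3 months and 226 CPM at 21 months, beside 202 and 187 CPM in hippocampal microglia-like nuclei.

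**Figure D5:**
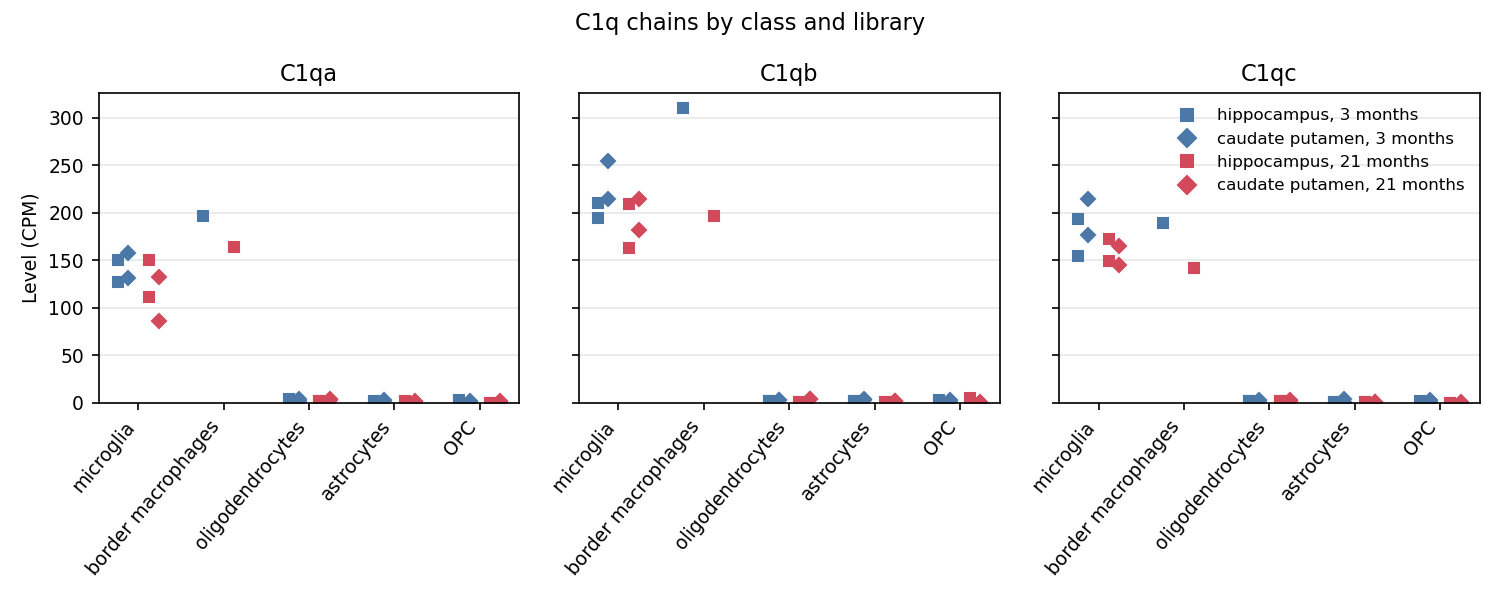
Level (CPM) of C1qa, C1qb and C1qc in 5 cell classes; squares are hippocampal and diamonds caudate putamen libraries of 3 (blue) and 21 (red) months, and libraries with under 20 nuclei of a class are left out. Microglia-like points lie between 85.6 and 254 CPM, with the red diamonds below the blue ones for C1qb and C1qc, and the oligodendrocyte-, astrocyte- and OPC-like points lie near 0.

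In oligodendrocyte-, astrocyte- and OPC-like nuclei C1q levels were low. In oligodendrocyte-like nuclei C1qb had 1.68 and 1.76 CPM in the young against 0.627 and 1.30 CPM in the old hippocampus, and 2.65 and 2.93 CPM against 3.60 and 3.59 CPM in the caudate putamen. Its region effect there was 1.28 (95% interval 0.63 to 1.94, adjusted p = 0.0142 by edgeR), higher in the caudate putamen, in the contrast where 12.9% of genes passed. C1qa (0.47, 95% interval -0.26 to 1.21) and C1qc (0.22, 95% interval -0.47 to 0.91) did not pass, and the chains were not tested against each other. The C1qb call was lost with DESeq2 (adjusted p = 0.0969) and, with edgeR, without library 2 of the 3-month caudate putamen (adjusted p = 0.0575) or library 1 of the 21-month hippocampus (adjusted p = 0.0812). The 13 microglia markers summed in these nuclei to 135 to 216 CPM in the hippocampus and 141 to 189 CPM in the caudate putamen, and their part in this result was not tested.

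The promoters of C1qb and C1qc were in the RefSeq promoter table (GRCm38.p6), as was that of C3, which makes 3 of the 6 genes. The pair is shown because its genes were high in the same class. Capitals mark GAGGAA, the core bound by PU.1, a transcription factor of the myeloid lineage, searched on both strands. It starts 30 bases before the RefSeq start site of C1qb and 193 bases before that of C1qc, where it reads as TTCCTC on the other strand. For C1qc the RefSeq start site lies inside the GENCODE gene given above, which begins further upstream, at 136893065. The distance of the C1qc match would be shorter by that annotation, so the 2 distances are not compared. GAGGAA occurs in 28.3% of 32851 promoters of the same length, so a match describes the letters only. The windows are chr4:136886151-136886450 for C1qb and chr4:136892865-136893164 for C1qc, both on the minus strand.
C1qb promoter: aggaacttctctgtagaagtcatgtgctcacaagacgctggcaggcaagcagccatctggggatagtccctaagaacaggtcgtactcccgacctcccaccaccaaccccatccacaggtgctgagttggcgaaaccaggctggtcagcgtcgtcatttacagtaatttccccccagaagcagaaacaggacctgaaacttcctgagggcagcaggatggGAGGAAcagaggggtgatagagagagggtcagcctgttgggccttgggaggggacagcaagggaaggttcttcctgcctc
C1qc promoter: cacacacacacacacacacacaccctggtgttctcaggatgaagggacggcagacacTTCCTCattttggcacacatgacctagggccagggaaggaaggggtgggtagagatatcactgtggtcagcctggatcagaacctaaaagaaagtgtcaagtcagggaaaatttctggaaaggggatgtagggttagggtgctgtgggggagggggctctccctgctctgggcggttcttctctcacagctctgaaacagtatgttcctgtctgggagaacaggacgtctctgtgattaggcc

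C3, the central component, gave hardly any signal. Whole libraries held 4 and 7 C3 UMIs in the young against 20 and 13 in the old hippocampus, and 3 and 0 against 10 and 4 in the caudate putamen. Astrocyte-like nuclei held 1 and 0 against 4 and 3 of them in the hippocampus and 0 and 0 against 3 and 0 in the caudate putamen. Microglia-like nuclei held 0 in all 8 libraries, which allows levels of up to 1.57 CPM in the best-sampled library and up to 6.05 CPM in the least. In each region both old libraries had more C3 per UMI than both young ones. In the caudate putamen the closest old and young libraries had 4 and 3 UMIs (0.0324 and 0.0240 CPM). How many of all genes separate the libraries in this way was not counted. C3 passed the low-count filter in no class, and its change with age was not tested.

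The genes whose levels followed each gene most closely were ranked by Pearson correlation of log2(CPM + 1) over 93 sums of 19 classes in the 8 libraries. For C4b they were Gramd3 (0.74), Appl2 (0.73), Tst (0.72), Apoe (0.71), the main brain apolipoprotein, and Aldh1a1 (0.71). For C1qb they were BC035044, Csf3r, Rhoh, Nlrp3 and Ncf4 (0.92 to 0.93), and for C1qc Arhgap45, Cd86, Spi1, Nlrp3 and Pik3cg (0.91 to 0.93), several of them genes of myeloid cells. Fcgr3, an immunoglobulin receptor, led for C1qa (0.90). Sums of 1 library share its depth, and classes are not independent points.

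Other genes of the pathway were taken from a list of 53: proteases, lectins, convertase parts, terminal components, receptors, regulators and brain inhibitors. Their calls were not checked under the alternatives or with libraries left out. The part of RNA from other cell types in their levels was not tested. In astrocyte-like nuclei 23 of them could be tested and 4 were lower at 21 months in the mean over regions, none higher, with a median effect of -0.18 against -0.01 over all genes (3.31% of genes passed). The 4 were Csmd2 (-1.29), Csmd1 (-1.0) and Sez6l2 (-0.74), of 2 families of membrane proteins with complement-control domains, and Calr (-0.74), the chaperone calreticulin, which can bind C1q. Csmd1 had 693 and 784 CPM in the young against 278 and 189 CPM in the old hippocampal libraries, and 665 and 595 CPM against 489 and 448 CPM in the caudate putamen. Sez6l2 overlapped between the ages in the caudate putamen, with 17.7 and 19.6 against 15.1 and 17.8 CPM. Calr was separated there by a small margin, with 56.4 and 40.6 against 33.8 and 39.3 CPM. All 4 passed for the hippocampal effect (0.871% of genes passed), and Csmd2 passed for the caudate putamen effect (0.399%). In the test of the difference between these effects none of the 23 passed, and 0% of all genes did.

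In microglia-like nuclei 22 listed genes were tested, and 1 passed in the mean over regions, where 1.44% of all genes did, and 2 in the caudate putamen, where 0.76% did. Itgax, a subunit of complement receptor 4, had 0 and 1 UMIs in the young against 7 and 6 in the old hippocampal libraries, and 0 and 1 against 14 and 16 in the caudate putamen. Its mean age effect was 4.41 (SE 0.75, adjusted p = 0.00382 by edgeR), a size that depends on the near absence of counts at 3 months. Itgax passed the low-count filter only through the 21-month libraries, so its call among the genes tested is a description of these counts. In the caudate putamen Itgax passed too (4.88, adjusted p = 0.02 by edgeR), and Csmd3 was lower by -0.49 (adjusted p = 0.0292 by edgeR). The listed median was 0.12 against -0.0023 over all genes.

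In oligodendrocyte-like nuclei 1 of 23 tested genes passed in the mean over regions, where 5.7% of all genes did: Masp1, a protease of the lectin pathway, was lower by -1.21 (adjusted p = 0.0383 by edgeR), with 20 and 23 against 4 and 10 UMIs in the hippocampus and 38 and 48 against 25 and 28 in the caudate putamen. Of 34 tested in D1-like neurons, Colec12 was lower (-1.37) and Vtn, the gene of vitronectin, higher (1.13), with adjusted p of 0.0415 and 0.0463 by edgeR, where 1.3% of all genes passed. Both levels were low in D1-like neurons. Colec12 had 2.25 and 1.76 CPM at 3 months and 0.810 and 0.754 CPM at 21 months. Vtn had 0.960 and 1.01 CPM at 3 months and 2.28 and 2.12 CPM at 21 months. Of 33 in D2-like neurons, Colec12 (-1.53), Calr (-0.67) and Cfp, the gene of properdin (-0.51), were lower, with adjusted p of 0.0133 to 0.0441 by edgeR, where 4.8% of all genes passed. In mural-like nuclei of the caudate putamen, the class of pericytes and smooth muscle, 1 of 11 listed genes passed: Csmd3 was lower by -1.0 (adjusted p = 0.0158 by edgeR; 2.79% of 4474 genes passed). No listed gene passed among 34 in dentate granule-like neurons (4.48% of all genes passed), 23 in CA1-like neurons (1.03%), 17 in OPC-like nuclei (2.02% in the mean over regions) or 17 in fibroblast-like nuclei (0.013%). None did in eccentric medium spiny-like, endothelial-like or interneuron-like nuclei either, where 0% of all genes passed for age.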

How the data were processed

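Single-nucleus RNA was measured in 8 libraries. The deposited matrices hold raw UMI counts per gene and barcode, with no normalization. The submitters' processing notes name Cell Ranger 4.0.0 and mm10; per the file headers, 7 libraries were made with Cell Ranger 6.1.2 and 1, library 2 of the 3-month caudate putamen, with 7.0.0. Whether intronic reads were counted is not given in the sources used here.

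Nuclei were retained from 500 detected genes up, if mitochondrial UMIs made up 5% or less. Scrublet removed 2.55% to 15.6% as doublets; its automatic threshold was replaced by the expected rate where it called over 2 times that rate, a rule set after the calls were seen. Each region was clustered (scanpy 1.11.5, 3000 variable genes without the complement genes, 40 principal components, 20 neighbours, Leiden resolution 1), and clusters were named from markers. Naming limits were set after the clusters were seen. The genes described and all lists were chosen with earlier results of these data known: all 6 genes were reported whatever their values, and of the 53 other complement genes those with an adjusted p under 0.05 for age were named.

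UMIs were summed per class and library (at least 20 nuclei in each) and tested with edgeR 4.0.16 (TMM, filterByExpr, robust quasi-likelihood, Benjamini-Hochberg over all genes of the class; R 4.3.3). Glial classes were fitted on all 8 libraries and neurons within their region. The fit was tested on simulated data. Alternatives were DESeq2 1.42.0, no filter, each library left out, the replicate number as a block, each region on its own, doublets retained, resolutions 0.5 and 2, complement genes used in clustering, nuclei thinned to 1500 UMIs and equal numbers of nuclei. Thinning left out nuclei with fewer than 1500 UMIs. Deviations of the same-numbered young and old libraries of a region correlated between -0.02 and 0.23, so the numbers were not taken to pair the ages. Whether libraries of different regions share animals was not checked. The fits on all 8 libraries treat them as independent, and if animals were shared, errors of the means over regions may be too small. Of the gene IDs 99.6% matched GENCODE vM21.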

Additional observations from a re-analysis of the deposited data

Results flagged for a closer look

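The age effect of C4b differed between 2 cell classes under the same contrast. The mean effect over both regions was 1.85 larger on the log2 scale in oligodendrocyte-like than in astrocyte-like nuclei (SE 0.16, adjusted p = 2.75e-11 by edgeR, with the library as a block). Leaving out each library in turn gave 1.71 to 2.02. The 2 classes came from the same libraries, and astrocyte markers summed to 337 to 603 CPM in the oligodendrocyte-like nuclei.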

How the results depend on the processing

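Of 543 alternatives for 36 tested results, 494 kept the direction and the side of the threshold, 23 lost the call, 6 gained one and 20 changed sign. All 36 results were of the 6 genes, and calls of the 53 other listed genes were not checked in this way. C4b passed under every alternative run for both regions and their mean in oligodendrocyte-like nuclei, for the caudate putamen and the mean in astrocyte-like nuclei, for the OPC-like mean (where C4b passed the filter only through the old libraries, and passed the test with no filter too), for D2-like neurons and for the difference between oligodendrocyte-like and astrocyte-like nuclei. DESeq2 gave no adjusted p for C4b in OPC-like nuclei. Causes of the changes below were not tested.

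With equal numbers of nuclei the OPC-like C4b effect was 2.33 in the caudate putamen (adjusted p = 0.405) and 2.99 in the hippocampus (0.171), the difference of these effects -0.66, the oligodendrocyte-like difference between regions 0.18, and the oligodendrocyte-like region effect 0.54 (0.0723). With thinned nuclei the D1-like effect was 3.25 (0.107), the oligodendrocyte-like region effect 0.45 (0.149), the difference of its age effects 0.00381, and C1qb in hippocampal microglia-like nuclei 0.0410. With doublets retained the OPC-like caudate putamen effect was 2.28 (0.0958), the astrocyte-like region effect -0.43 (0.0175), and the hippocampal microglia-like effects 0.0875 for C1qa, 0.0701 for C1qb and 0.0584 for C1qc. Fitting the hippocampus on its own gave 2.40 for OPC-like C4b (0.0885). With no filter the astrocyte-like difference between regions was 0.68 (0.0451) and the dentate granule-like effect 1.09 (0.00125). With the replicate block the dentate granule-like effect was 1.01 (0.017), and no other call changed under the block. Resolutions 0.5 and 2 gave 0.0156 and 0.0349 for the oligodendrocyte-like difference between regions.

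Leaving out each library in turn, the C4b effects ranged as follows. In oligodendrocyte-like nuclei the range was 2.96 to 3.76 in the hippocampus, 3.14 to 3.32 in the caudate putamen, -0.54 to 0.24 for their difference and 0.51 to 0.87 for the region effect. In astrocyte-like nuclei the hippocampal range was 0.99 to 1.29. In OPC-like nuclei the ranges were 2.11 to 3.04, 2.34 to 2.71 and, for the difference, -0.52 to 0.42. D1-like neurons gave 3.01 to 3.69 and dentate granule-like neurons 0.62 to 1.43. In hippocampal microglia-like nuclei C1qa ranged from -0.30 to 0.17, C1qb from -0.29 to 0.10 and C1qc from -0.24 to 0.12, and the C1qb region effect in oligodendrocyte-like nuclei from 1.08 to 1.59, with 1.29 under DESeq2 (adjusted p = 0.0969). For shares of nuclei with a C4b UMI and class shares of C4b UMIs, 29 of 48 alternatives moved the value by the SD of its 2 libraries or more. The alternatives for shares of nuclei were no thinning and thinning to 1000 UMIs. Either changes the UMIs per nucleus and with them the share, so for these shares the count does not measure stability. With 2 libraries per group, a pool of 2 animals each, and counts as low as 2 UMIs per library in OPC-like nuclei, effects of C4a were not resolved, and those of C3 and microglial C4b were not tested.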

Other observations

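C4b was also found in cells of the brain's borders and vessels, in numbers too small for a test. Hippocampal border or perivascular macrophage-like nuclei had 85.1 and 129 CPM of C4b at 3 months and 186 and 213 CPM at 21 months, from 6 to 17 UMIs per library. Among hippocampal endothelial-like nuclei C4b was seen in library 1 of each age (9 and 35 UMIs) and had 0 UMIs in library 2 of each age. Much of it lay in a cluster led by Bmx and Eln, genes of arteries. In library 1 this cluster had 51.8 CPM from 29 nuclei at 3 months and 72.6 CPM from 40 nuclei at 21 months. In library 2 it held only 7 and 4 nuclei. Astrocyte markers came second in its naming, with a mean log2 score of 2.50 against 5.07 for endothelial markers. The part of astrocyte RNA in its C4b was not tested.

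An unnamed hippocampal cluster of 847 nuclei, whose leading markers were those of astrocytes together with Ttr, a choroid plexus gene, had 67.1 and 51.2 CPM of C4b at 3 months and 129 and 84.5 CPM at 21 months. It held 387 nuclei in library 1 and 111 in library 2 of 21 months. A small caudate putamen oligodendrocyte-like cluster led by Cldn14, with Mobp, Tmem163 and Opalin, had 1 C4b UMI in each library of 3 months, from 21 and 30 nuclei, and 0 at 21 months, from 4 and 6 nuclei.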
